A study of Arabidopsis thaliana with 8 samples.

Results

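The genes described here encode proteins of the cytosolic ribosome of Arabidopsis thaliana. They are 60 listed loci, 32 for the large subunit and 28 for the small subunit, among 25665 loci on the array. They were found by matching the locus name of each probe to the list, and all 60 had a probe. The gene table used for symbols names 26 of them, and the other 34 are given by locus and subunit alone. MYB87-SRDX seedlings carried 35S:MYB87-SRDX, which joins the R2R3-MYB transcription factor MYB87 to the SRDX repression domain under a promoter active in most tissues. They were compared with wild-type seedlings, both in the Columbia-0 ecotype and both sampled whole at 2 weeks of age, with 4 one-colour arrays in each group and 5 pooled seedlings for each array. The plants grew on agar medium with 1% sucrose at 23 °C, with 16 h of light and 8 h of dark. MYB87-SRDX seedlings were on hygromycin and wild-type seedlings were not. The labels name no line for the transgenic seedlings, call the seedlings of both groups T2, and include no group with MYB87 lacking the repression domain. The labels do not say that the samples of a group came from separate cultures, so a p-value here reflects only how much these samples varied, part of which may be technical.

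The cytosolic ribosome joins a large subunit, which forms peptide bonds, to a small subunit, which reads the messenger RNA. In Arabidopsis most of its proteins are encoded by several near-identical genes, and their transcripts are among the most abundant in growing tissue. Transcription and translation of these genes respond to TOR kinase signalling, and ribosomal protein S6 is a substrate of S6 kinase in that pathway. Mutants in several of these genes have pointed leaves, altered leaf polarity or altered vein and carpel patterning. Probes for such gene copies can bind transcripts of more than one copy, which was not tested, so values of single copies are uncertain in that respect.

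MYB87 itself checked the labels. Its log2 signal relative to each array's 75th percentile was 5.75, 5.52, 5.58 and 2.54 on the MYB87-SRDX arrays, against -5.48, -7.20, -7.44 and -7.08 on the wild-type arrays. The probe was well above background on all 4 MYB87-SRDX arrays and on 2 of the 4 wild-type arrays. MYB87-SRDX replicate 4 was lower than the other MYB87-SRDX arrays, and the groups were far apart. The 75th percentile of the signal lay between 1539 and 2053 intensity units over the 8 arrays, and 63.1% to 65.5% of the spots on an array were well above background. All 4 MYB87-SRDX arrays lay on one slide and all 4 wild-type arrays on another, so slide, hygromycin and genotype cannot be told apart. Arrays correlated with r between 0.989 and 0.995 within MYB87-SRDX, between 0.975 and 0.994 within wild type and between 0.961 and 0.983 across the groups. These correlations are over probes, which are not independent replicates.

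Relative to the 75th percentile of each array, ribosomal protein genes tended to be higher in MYB87-SRDX seedlings, by small amounts. Of the 59 that could be tested, 23 were higher at an adjusted p below 0.05 and 0 were lower, against 15.1% of all 20332 tested loci higher and 12.5% lower (limma, Benjamini-Hochberg adjustment over all loci). At an unadjusted p below 0.05, 37 of the 59 members passed, against 41.4% of all loci. The median log2 difference of the members was 0.26, against 0.01 over all tested loci, and 53 of the 59 members were above zero. The quartiles were 0.09 and 0.37, and the range ran from -0.34 to 0.83. For 20 members every MYB87-SRDX array was above every wild-type array, and for 0 the reverse held, against 17.7% and 13.2% of all loci. In bulk seedlings, more cells of a type and more RNA per cell cannot be told apart. The direction of the whole group depended on how arrays were put on a common scale, as set out next.

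**Figure D1:**
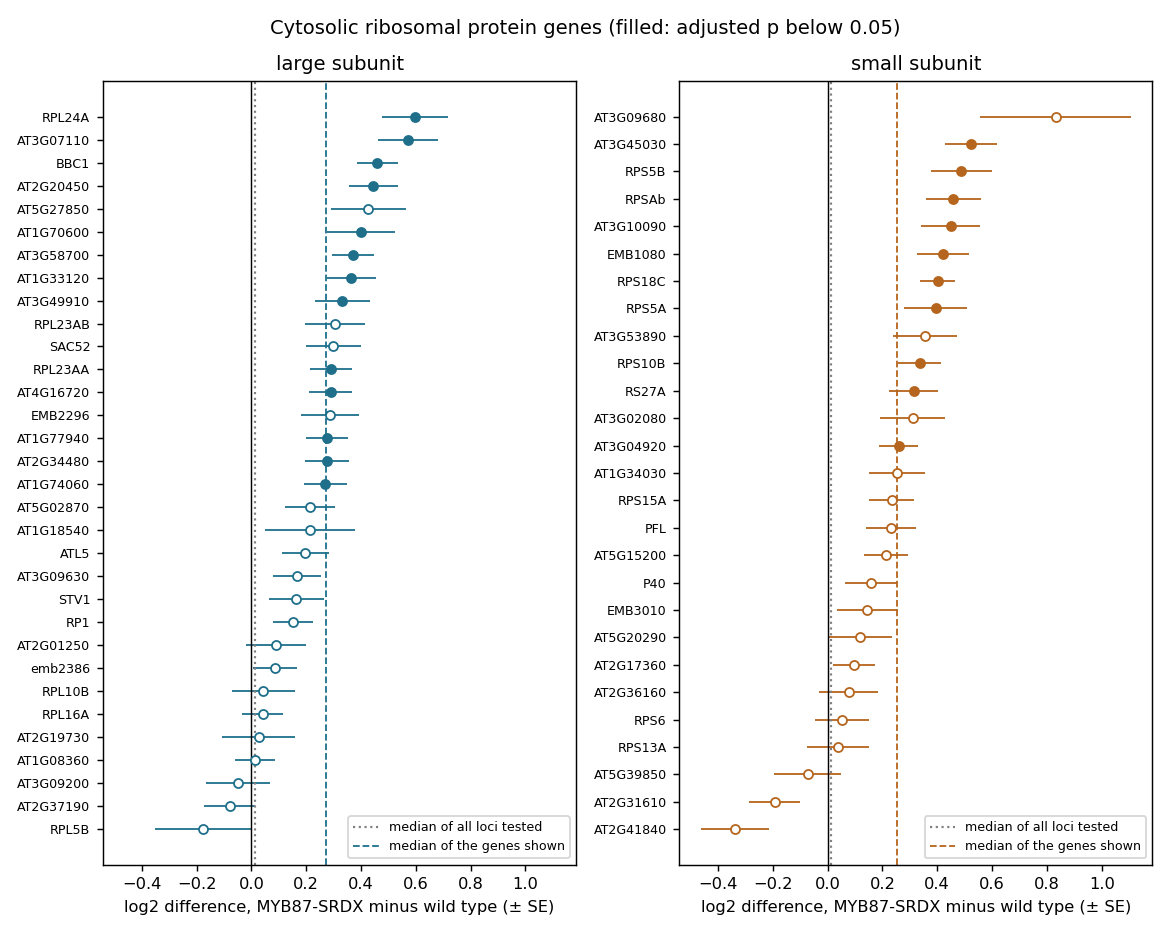
Log2 difference, MYB87-SRDX minus wild type, with its standard error, for each tested ribosomal protein gene of the large subunit (left, 32 genes) and the small subunit (right, 27 genes), n = 4 arrays in each group. Filled points passed an adjusted p of 0.05. The median of the genes shown was 0.27 in the large subunit and 0.25 in the small subunit, against 0.01 over all tested loci.

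The arrays carry added control transcripts, named E1A, which serve as a reference outside the plant's own RNA. Of 10 such controls, each spotted 32 times per array, 8 were well above background on all arrays. On the same scale as the genes, their mean log2 signal was 1.69, 1.29, 1.25 and 1.44 on the MYB87-SRDX arrays, against 0.99, 1.18, 1.15 and 1.28 on the wild-type arrays. The highest wild-type array, replicate 4, lay above MYB87-SRDX replicate 3 and just below MYB87-SRDX replicate 2. The difference was 0.27, with 1.42 ± 0.20 in MYB87-SRDX and 1.15 ± 0.12 in wild type (SD, n = 4 each), and a two-sided exact permutation test gave p = 0.0571 (the smallest p possible is 0.0286). All 8 controls were higher in MYB87-SRDX, by 0.12 to 0.36. Without MYB87-SRDX replicate 1, the array with the highest mean, the difference was 0.17 (exact permutation test, p = 0.0857). The labels do not state how much was added to each sample.

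Scaled to these controls, the differences of the ribosomal protein genes were centred near zero. Their median was -0.01, with 29 of 59 above zero, 0 higher and 1 lower, while the median of all loci was -0.25, with 2.38% of loci higher and 17.8% lower. The member called lower on that scale was AT2G31610 of the small subunit, at -0.46 (limma, adjusted p = 0.0296). Arrays within a group also spread more on the control scale. The pooled SD of the members' median deviation on each array was 0.18, against 0.095 on the percentile scale. In numbers of loci, 483 were higher and 3610 lower on the control scale, against 3064 and 2540 on the percentile scale. What did not depend on this choice was the position of the members relative to the other loci. Their median lay 0.25 above the median of all loci with either scale, since each shifts a whole array by 1 constant, and 53 members lay above that median. A higher amount of these transcripts in MYB87-SRDX and a higher share relative to other transcripts cannot be told apart here.

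Other scalings moved the counts further. Scaling each array to its median gave 20 members higher, 0 lower and a median of 0.35, with 13.2% of all loci higher and 6.79% lower (2675 and 1381 loci) and an all-locus median of 0.10. Without any scaling 2 members were higher, RPL24A and AT3G07110, and 0 lower, with 3.58% of loci higher and 8.12% lower (727 and 1650 loci) and an all-locus median of -0.11. Scalings that depend on brightness narrowed the gap between members and other loci, with 10 members higher under both quantile and cyclic loess scaling. The background was 12.5% of loci higher and 11.9% lower under quantile scaling, and 12.4% higher and 13.6% lower under cyclic loess. The members' median then lay 0.13 above that of all loci in both cases, and AT2G41840 of the small subunit was called lower, at -0.46 under quantile and -0.47 under cyclic loess scaling. Correcting the background with normexp left 2 members higher, AT3G07110 and RPSAb, with 3.75% of loci higher, and a gap of 0.06. Of the 59 members, 46 lay above the median of all loci under quantile scaling, 44 under cyclic loess and 37 under normexp. The authors' deposited values, in which the differing constants of the slides add 0.10 to every log2 difference relative to unscaled signals, gave 5 members higher, with 5.42% of loci higher.

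**Figure D2:**
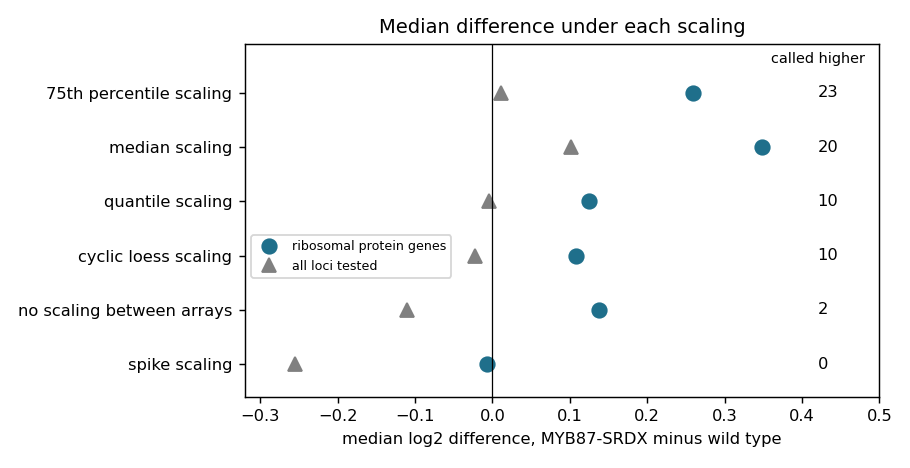
Median log2 difference, MYB87-SRDX minus wild type, of the 59 tested ribosomal protein genes (circles) and of all tested loci (triangles) under each way of scaling the arrays, with the number of ribosomal protein genes called higher at the right. The circles lie to the right of the triangles under every scaling shown, and the circle for scaling to the added controls lies near zero.

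Brightness moved with these results. Loci were put into 10 equal groups by their mean signal, and the median difference went with signal, being -0.13 and -0.16 in the dimmest 2 groups and 0.14 in the brightest. Of the 59 members, 36 lay in the brightest group and 11 in the next. In the brightest group the members' median difference was 0.22, against 0.14 for all loci there, and 14 of the 36 were called higher, where 24.5% of all loci in that group were higher and 4.72% lower. In the next group the members' median was 0.39, against 0.09 for all loci, with 6 of 11 called higher, where 21.6% of all loci in that group were. The part of brightness in the members' difference was not tested beyond these values.

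**Figure D3:**
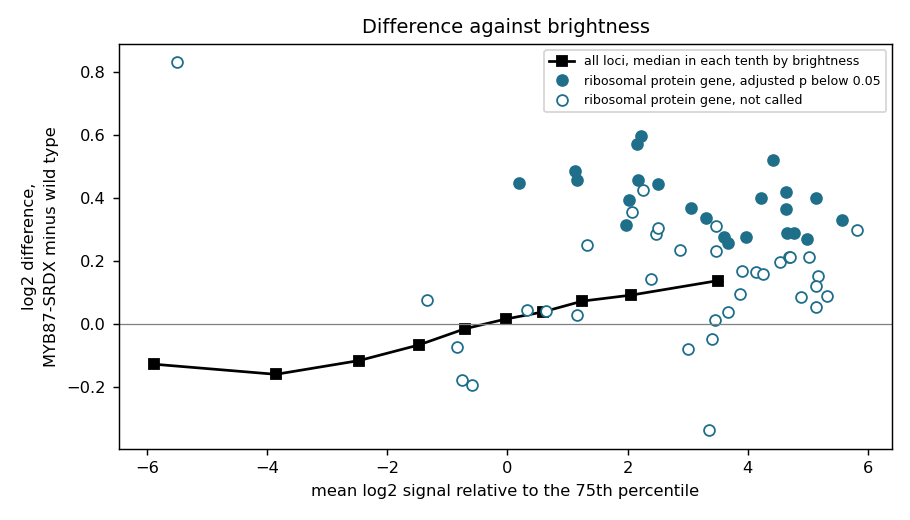
Log2 difference, MYB87-SRDX minus wild type, against mean log2 signal for each tested ribosomal protein gene (circles, filled where the adjusted p is below 0.05), with the median of all loci in each of 10 equal groups by signal (squares, joined). The joined medians run between -0.16 and 0.14, and most circles at higher signal lie above them.

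The 8 arrays also showed where single libraries counted. Expressed as the median deviation of the members from their own mean over arrays, MYB87-SRDX arrays stood at 0.09, 0.07, 0.21 and 0.08, against -0.16, -0.16, -0.22 and 0.05 for the wild-type arrays. Wild-type replicate 4 thus lay near the MYB87-SRDX arrays, and it was the highest wild-type array for 47 of the 59 members. Without it 32 members were called higher (14.6% of all loci were). The count was 9 without wild-type replicate 2 (7.65% of loci higher), 10 without wild-type replicate 3 (9.33%), 13 without MYB87-SRDX replicate 1 (8.69%), 13 without MYB87-SRDX replicate 3 (12.2%) and 14 without MYB87-SRDX replicate 4 (10.6%). The members' median stayed between 0.23 and 0.31 whichever single array was left out, with 0 lower each time. Before any scaling, the members' median deviation was 0.11 higher in MYB87-SRDX and the added controls were 0.14 higher, while the median deviation of all loci was 0.10 below that of wild type. The pooled SD within groups was larger each time, at 0.13 for the members, 0.18 for the controls and 0.16 for all loci. For the unscaled controls the exact permutation test gave p = 0.343.

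**Figure D4:**
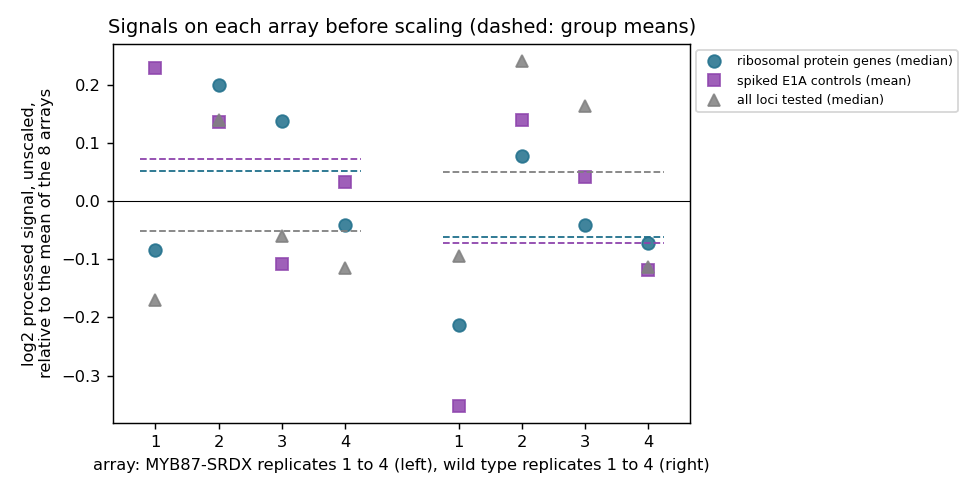
Unscaled log2 processed signal on each array relative to the mean of the 8 arrays, for the median of the ribosomal protein genes (circles), the mean of the added control transcripts (squares) and the median of all tested loci (triangles), with MYB87-SRDX replicates at the left and wild-type replicates at the right. Dashed lines are group means; those of the ribosomal protein genes and the controls are higher in MYB87-SRDX, and that of all loci is lower.

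In the large subunit all 32 genes were tested, 13 were higher and 0 lower, with a median difference of 0.27, 29 above zero and 11 whose groups did not overlap. Over all tested loci, 15.1% were higher, 12.5% were lower and 17.7% had every MYB87-SRDX array above every wild-type array. RPL24A, a gene for ribosomal protein L24, had the largest called rise of all members. Its log2 signal was 2.76, 2.41, 2.43 and 2.50 on the MYB87-SRDX arrays, against 1.93, 1.76, 1.83 and 2.20 on the wild-type arrays. Every MYB87-SRDX array was above every wild-type array, and the difference was 0.60 ± 0.12 (SE, n = 4 each; limma, adjusted p = 0.0105), a fold of 1.51. The large-subunit locus AT3G07110 was next, at 2.57, 2.27, 2.56 and 2.40 in MYB87-SRDX, against 1.86, 1.72, 1.81 and 2.12 in wild type. Its groups did not overlap either, and the difference was 0.57 ± 0.11 (limma, adjusted p = 0.00877). It was called higher under 19 of the 20 other settings and RPL24A under 18, more often than any other member.

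BBC1, a gene for ribosomal protein L13, had log2 signals of 2.39, 2.32, 2.53 and 2.37 in MYB87-SRDX, against 1.91, 1.95, 1.84 and 2.07 in wild type. The arrays within each group were close together, and the difference of 0.46 ± 0.08 had an adjusted p of 0.00547 (limma). AT2G20450 of the large subunit was at 2.83, 2.61, 2.70 and 2.79 in MYB87-SRDX, against 2.22, 2.34, 2.14 and 2.46 in wild type. The groups did not overlap, with a difference of 0.45 ± 0.09 (limma, adjusted p = 0.0104). The other 9 large-subunit genes called higher were AT1G70600 (0.40), AT3G58700 (0.37), AT1G33120 (0.36), AT3G49910 (0.33), RPL23AA (0.29), AT4G16720 (0.29), AT1G77940 (0.28), AT2G34480 (0.28) and AT1G74060 (0.27), as log2 differences. RPL23AA encodes ribosomal protein L23a, which lies near the exit of the peptide tunnel. In AT1G70600, AT3G49910 and AT1G74060 the arrays of the groups overlapped. The call was kept under 16 of the 20 other settings in AT3G58700 and under 10 in AT1G33120. It was kept under 8 in AT1G70600 and RPL23AA, and under 7 in AT4G16720 and AT1G77940. In AT3G49910, AT2G34480 and AT1G74060 it was kept under 5.

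The 19 large-subunit genes that did not pass ran from -0.18 in RPL5B to 0.43 in AT5G27850, whose adjusted p was 0.0501. SAC52, a gene for ribosomal protein L10 whose altered form suppresses the dwarf stem of acaulis5 mutants, had a difference of 0.30 (limma, adjusted p = 0.0589). RP1, a gene for ribosomal protein L3 near the peptide-bond-forming centre, had 0.15, and RPL16A, for ribosomal protein L11, had 0.04. The embryo-defective genes EMB2296 and emb2386, for ribosomal proteins L8 and L19, had 0.29 and 0.09. Apart from RPL5B, AT2G37190 (-0.08) and AT3G09200 (-0.05) were below zero.

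**Figure D5:**
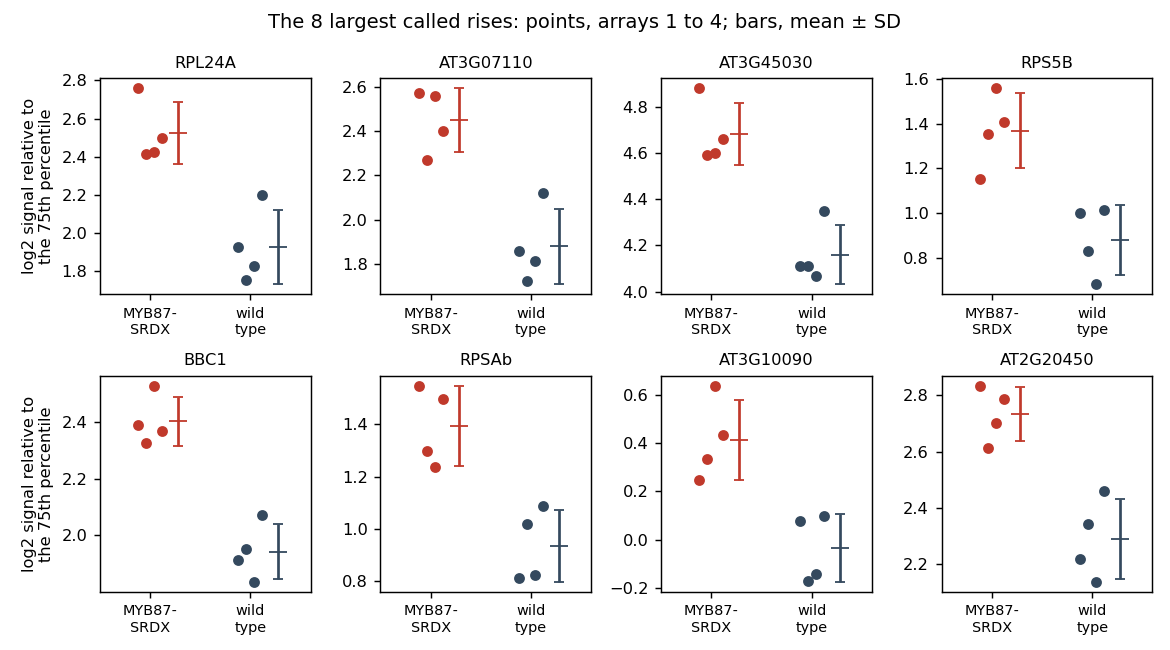
Log2 signal relative to each array's 75th percentile for the 8 ribosomal protein genes with the largest called rises, MYB87-SRDX left and wild type right, each point 1 array and each bar the mean ± SD of 4 arrays. In all 8 panels every MYB87-SRDX point lies above every wild-type point.

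In the small subunit 27 of 28 genes were tested, 10 were higher and 0 lower, with a median difference of 0.25, 24 above zero and 9 whose groups did not overlap. The shares over all tested loci were 15.1% higher, 12.5% lower and 17.7% with every MYB87-SRDX array above. AT3G45030 had the largest called rise in the small subunit, with log2 signals of 4.88, 4.59, 4.60 and 4.66 in MYB87-SRDX, against 4.11, 4.11, 4.07 and 4.35 in wild type. Wild-type replicate 4 stood apart from the other wild-type arrays but stayed below all MYB87-SRDX arrays. The difference was 0.52 ± 0.09 (SE, n = 4 each; limma, adjusted p = 0.00735). AT3G10090 was at 0.25, 0.33, 0.64 and 0.44 in MYB87-SRDX, against 0.08, -0.17, -0.14 and 0.10 in wild type. Its difference was 0.45 ± 0.11 (limma, adjusted p = 0.0194), with groups that did not overlap, but leaving out replicate 2 (0.40) or replicate 3 (0.41) of wild type ended the call.

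Both genes of ribosomal protein S5 were called higher on the percentile scale. RPS5B had log2 signals of 1.15, 1.36, 1.56 and 1.41 in MYB87-SRDX, against 1.00, 0.83, 0.68 and 1.01 in wild type, and a difference of 0.49 ± 0.11 (limma, adjusted p = 0.0165). Every MYB87-SRDX array was above every wild-type array, but without wild-type replicate 2 the difference of 0.47 did not pass. RPS5A had a difference of 0.39 ± 0.12 (limma, adjusted p = 0.0380). It kept its call under 6 of the 20 other settings, with 0.31 and an adjusted p of 0.0955 under quantile scaling. RPSAb, a gene for ribosomal protein Sa of the small subunit, was at 1.55, 1.30, 1.23 and 1.50 in MYB87-SRDX, against 0.81, 1.02, 0.82 and 1.09 in wild type. The groups did not overlap, and the difference was 0.46 ± 0.10 (limma, adjusted p = 0.0150). It is the member with 2 probes, and the other probe had a difference of 0.36. The remaining small-subunit genes called higher were EMB1080 for S11 (0.42), RPS18C for S18 (0.40), RPS10B for S10 (0.34), RS27A for S27 (0.31) and AT3G04920 (0.26), of which only RS27A had overlapping groups. RPS18C kept its call under 16 of the 20 other settings, EMB1080 under 14, RPS10B under 10, AT3G04920 under 7 and RS27A under 5.

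The 17 tested small-subunit genes that did not pass included both genes for ribosomal protein S6, RPS6 at 0.05 and EMB3010 at 0.14 on the percentile scale, and at -0.21 and -0.12 on the added-control scale. The S6 protein is the one that S6 kinase phosphorylates. RPS15A, for ribosomal protein S15a, had 0.23. The lowest of all members was AT2G41840, with log2 signals of 2.91, 3.35, 3.41 and 3.1 in MYB87-SRDX, against 3.35, 3.61, 3.54 and 3.63 in wild type. Its groups overlapped, and the difference of -0.34 ± 0.12 had an adjusted p of 0.0766 (limma). The highest was AT3G09680, a dim probe at -5.44, -5.11, -4.82 and -5.01 in MYB87-SRDX, against -5.59, -6.12, -6.64 and -5.36 in wild type. Its difference of 0.83 ± 0.27 did not pass (limma, adjusted p = 0.0558), and the groups overlapped. These 2 genes were chosen after their values were seen. AT2G09990 was not tested because its probe was well above background on 1 MYB87-SRDX array and on 0 wild-type arrays. The other 59 members were well above background on all 8 arrays.

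The 5 members listed for their leaf or patterning mutants, PFL, RPS13A, STV1, ATL5 and RPL5B, were not called. These 5 are a chosen set and do not stand for all ribosomal protein genes with such mutants. PFL, a gene for ribosomal protein S18 whose mutant has pointed first leaves, had log2 signals of 3.54, 3.64, 3.65 and 3.51 in MYB87-SRDX, against 3.25, 3.30, 3.28 and 3.59 in wild type. Only wild-type replicate 4 overlapped the MYB87-SRDX arrays, and the difference was 0.23 ± 0.09 (limma, adjusted p = 0.0890). Without that array the difference was 0.31 and passed. RPS13A, for ribosomal protein S13, was at 3.50, 3.70, 3.94 and 3.59 in MYB87-SRDX, against 3.72, 3.66, 3.45 and 3.76 in wild type. The groups were mixed, with a difference of 0.04 ± 0.11 (limma, adjusted p = 0.821).

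STV1, a second L24 gene whose mutant has short valves in the fruit, was at 4.35, 4.13, 4.20 and 4.18 in MYB87-SRDX, against 3.93, 3.97, 3.99 and 4.31 in wild type. Its difference was 0.16 ± 0.10 (limma, adjusted p = 0.248), and 0.25 with a pass when wild-type replicate 4 was left out. ATL5, for ribosomal protein L5, was at 4.73, 4.55, 4.71 and 4.60 in MYB87-SRDX, against 4.48, 4.35, 4.33 and 4.63 in wild type. It overlapped through wild-type replicate 4 alone, with a difference of 0.20 ± 0.09 (limma, adjusted p = 0.120). RPL5B, the other L5 gene, was at -1.30, -0.61, -0.48 and -1.0 in MYB87-SRDX, against -0.77, -0.56, -0.70 and -0.65 in wild type. The MYB87-SRDX arrays spread on both sides of the wild-type arrays, with a difference of -0.18 ± 0.17 (limma, adjusted p = 0.471), which was -0.026 without MYB87-SRDX replicate 1 and -0.30 without MYB87-SRDX replicate 3.

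Gene copies of 1 protein could be set against each other within an array, where scaling by a constant cancels. For 8 pairs that the gene table names, the log2 ratio of the copies was compared between the groups with a two-sided exact permutation test. For L24, the ratio of RPL24A to STV1 was 0.43 higher in MYB87-SRDX, with groups that did not overlap and p = 0.0286 by the exact permutation test, the smallest 4 against 4 arrays can give, or 0.229 after adjustment over the 8 pairs. It was between 0.40 and 0.48 under every alternative run for the pairs. For L5, the log2 ratio of ATL5 to RPL5B was 0.38 higher (exact p = 0.171), but 0.20 without MYB87-SRDX replicate 1 and 0.17 under quantile scaling. For Sa, the change in the log2 ratio of P40 to RPSAb, MYB87-SRDX minus wild type, was -0.30 (exact p = 0.114), and -0.41 without MYB87-SRDX replicate 3 (exact p = 0.0286). P40, the other Sa gene, was at 4.28, 4.25, 4.52 and 4.30 in MYB87-SRDX, against 4.0, 4.28, 4.13 and 4.29 in wild type, with a difference of 0.16 ± 0.09 (limma, adjusted p = 0.239). The other 5 pairs differed by -0.17 to 0.25, with exact p between 0.200 and 0.743, and no pair passed after adjustment.

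The remaining cytosolic ribosomal protein genes were described from a wider list of 148 loci. Of 143 tested, 66 were higher and 0 lower, with a median log2 difference of 0.29, 132 above zero and 64 whose MYB87-SRDX arrays all lay above the wild-type arrays. The shares over all loci were those given above, 15.1% higher, 12.5% lower and 17.7% with every MYB87-SRDX array above. The 2 largest called rises were AT2G43460 at 0.81 ± 0.14 and AT4G31985 at 0.79 ± 0.12 (limma, adjusted p = 0.00686 and 0.00467), and these 2 also passed on the added-control scale, at 0.55 and 0.52. On that scale 3 of the 143 were higher, the third being AT2G32220 at 0.48, a share near the 2.38% of all loci, and the median was 0.02. Under quantile scaling 45 were higher and 1, SAG24, was lower at -0.21, against 12.5% of all loci higher and 11.9% lower. Without scaling 18 were higher (3.58% of all loci), under normexp 14 (3.75%) and in the authors' values 32 (5.42%). These genes were read on the same arrays as the 60 members.

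Genes that act with the ribosome were counted on the percentile scale, where 15.1% of all loci were higher and 12.5% lower. Among 30 translation factors, 8 were higher and 1 lower, with a median of 0.21, which was 0.10 under quantile and -0.05 under added-control scaling. AT1G07930 (0.57) and AT1G07940 (0.53) had the largest rises, the value of AT1G07940 resting on 3 wild-type arrays because its spot on replicate 1 was excluded as an outlier. The 1 lower factor was ELF5A-3, a gene for translation factor eIF5A, at -0.36. Among 27 ribosome assembly factors, 7 were higher and 1 lower, with a median of 0.15, which was 0.14 under quantile and -0.12 under added-control scaling. AT1G52930 (0.57) and NAP57 (0.39), the pseudouridine synthase that modifies ribosomal RNA, had the largest rises, and the nucleolin gene NUC-L2 was lower at -0.32. Among 5 TOR signalling genes, the S6 kinase gene S6K2 (0.45) and LST8-1 (0.31), a partner of the TOR kinase, were higher, and the median was -0.12 on the percentile scale. The other 3 were not called and lay below zero, the lowest at -0.35. The median of the 5 was -0.18 under quantile and -0.38 under added-control scaling. Neither rise was called without scaling, under normexp or in the authors' values. Among 30 plastid ribosomal protein genes, which serve the chloroplast's own ribosomes, 5 were higher, a share near that of all loci, and 0 lower, with the largest rises in RPL21C (0.54) and PRPL35 (0.51). Their median was 0.16, but 0.0045 under quantile and -0.11 under added-control scaling. On the added-control scale, 0 genes of these 4 lists were higher, and 2 translation factors and 1 assembly factor were lower, where 2.38% of all loci were higher and 17.8% lower.

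Markers of dividing, photosynthetic and root cells were read beside these values. All 14 dividing-cell markers were well above background on all arrays. Their summed signal was 10.4 to 16.3 times the 75th percentile in MYB87-SRDX, against 11 to 16.1 in wild type, and 2 were lower, CYCB1;4 (-0.95) and CDKB2;1 (-0.86), with 0 higher and a median of -0.30. That count is near the 12.5% of all loci called lower, and it was 0 under normexp. Of the 14 dividing-cell markers, 2 were above zero. Their median was also -0.30 under quantile scaling, and -0.57 under added-control scaling. The 13 photosynthetic leaf markers summed to 1165 to 1422 in MYB87-SRDX, against 1079 to 1480 in wild type, with 1 lower, CAB1 (-0.98), 0 higher and a median of 0.12. That median was -0.05 under quantile scaling, with 3 lower, and -0.15 under added-control scaling, and 4 were lower under cyclic loess scaling. Over all loci, 15.1% were higher and 12.5% lower on the percentile scale, with 11.9% lower under quantile and 13.6% under cyclic loess scaling. The 9 root endodermis and root hair markers summed to 2.44 to 6.44 in MYB87-SRDX, against 2.52 to 9.13 in wild type, with 0 called and a median of -0.27. The sums overlapped between the groups for all 3 marker lists. The part of cell mix in the ribosomal protein differences was not tested.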

How the data were processed

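The 8 deposited scanner tables, 1 for each one-colour array, hold linear spot intensity. Per the submitters' processing notes, the authors extracted it with Agilent Feature Extraction, version 9.1.3.1. The authors' deposited value table equals the processed signal intensity times a constant, 0.00117 for MYB87-SRDX arrays and 0.00109 for wild-type arrays, so it is linear, unscaled within a group, and raised by 0.10 on the log2 scale in MYB87-SRDX relative to wild type. Its array medians were 0.108, 0.133, 0.114 and 0.114 for MYB87-SRDX and 0.129, 0.150, 0.123 and 0.105 for wild type. No source used here says why the constants differ.

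Outlier spots (3 to 44 per array) were dropped, each array's 75th percentile, taken over its 37685 non-control spots, was subtracted from the log2 processed signal, and repeated spots of 1 probe were averaged. Probes entered the fit if at least 3 arrays of either group had them well above background, and each locus was represented by its brightest such probe. No ribosomal protein probe was saturated. Differences were fitted with limma 3.58.1 (lmFit, eBayes) in R 4.3.3, adjusted by Benjamini-Hochberg over all 20332 loci. The fit was tested on simulated data with independent noise at each locus and no array-wide shifts. It recovered 44.8% of log2 changes of 0.5, 68.7% of 1 and 89.4% of 2, with 10 false calls among 20332 loci. The upper quartile of the members' differences, 0.37, lay below the smallest change simulated. The number of arrays limits the precision.

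The members and lists were chosen with earlier results of these data known. Values on every array are given for the 8 largest called rises, the 4 largest called falls (0 existed), the 3 gene pairs with the largest contrasts and 5 members with known mutants. From each wider list the 2 largest called rises and falls are named. Other genes were named after their values were seen. Alternatives covered scaling, background (normexp with offset 50 on median signals), filter, probe choice, the fit, the authors' values and leaving out each array. Replicate numbers are array positions on the slides.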

Additional observations from a re-analysis of the deposited data

Results flagged for a closer look

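In 3 ribosomal protein genes wild-type replicate 4 stood far from the other wild-type arrays, by a gap test on groups of 4 that was applied to 32 groups of arrays and flags about 1 in 20 by chance. The log2 signal relative to the 75th percentile there was 4.35 in AT3G45030, with the other wild-type arrays at 4.07 to 4.11. In STV1 it was 4.31, with the others at 3.93 to 3.99. In PFL it was 3.59, with the others at 3.25 to 3.30.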

How the results depend on the processing

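The number of members called lower stayed at 0 under every alternative other than quantile, cyclic loess (chosen after seeing the data) and added-control scaling, and the members' median stayed above zero under every alternative other than added-control scaling. Quantile scaling gave 10 members higher, 1 lower and a median of 0.13 (log2); cyclic loess gave 10, 1 and 0.11; no scaling gave 2 higher and a median of 0.14, with 727 loci higher and 1650 lower; scaling to the added controls gave 0 higher, 1 lower and a median of -0.0074, with 483 loci higher. Median scaling left 1381 loci lower. Normexp left 2 members higher, with 763 loci higher and 471 lower. The authors' values left 5 members higher (5.42% of loci), with 1102 loci higher and 1095 lower. Of the members called there, all 10 under quantile, all 10 under cyclic loess and 18 of 20 under median scaling were among the 23. With the replicate number as a block, 10 members (8.91% of loci) and 1812 loci were higher. Same-numbered arrays had correlated deviations of 0.09, 0.09, 0.16 and -0.22, and differently numbered arrays ran from -0.32 to 0.29. With 4 arrays in each group, these values cannot say whether the numbers pair the samples. Leaving out 1 array at a time gave 9 to 32 members higher, 1556 to 3088 loci higher, 1371 to 2899 lower, and an added-control difference of 0.17 to 0.32. The added-control difference was 0.17 without MYB87-SRDX replicate 1 (exact p = 0.0857) and 0.32 without MYB87-SRDX replicate 3 (exact p = 0.0286). Over all 59 members, 24 turned from above to below zero with added controls, 7 under quantile, 10 under cyclic loess and 11 with no scaling, among them RPS6 (-0.213, -0.070, -0.148 and -0.069) and emb2386 (-0.181, -0.076, -0.106 and -0.036) in each of these settings in turn, and RP1 with added controls (-0.113) and cyclic loess (-0.048). Among the members given in full and the pairs, these changed sign. RPS13A was -0.082 both under quantile scaling and with no scaling, -0.105 under cyclic loess and -0.227 with added controls, and it ranged from -0.046 (without MYB87-SRDX replicate 3) to 0.100 when 1 array was left out. P40 was -0.0081 under cyclic loess and -0.108 with added controls, where STV1 was -0.102, ATL5 -0.069 and PFL -0.035. The SAC52 to RPL10B log2 ratio was -0.027 under normexp, and the RPL23AA to RPL23AB log2 ratio was 0.026 under normexp and -0.051 to 0.014 when 1 array was left out, with 4 of the 8 arrays turning its sign. Of the 8 members with the largest rises, the number of the 20 alternatives that kept the call was 19 for AT3G07110, 18 for RPL24A, 17 for AT3G45030 and RPSAb, 16 for BBC1 and AT2G20450, 14 for RPS5B and 13 for AT3G10090. The causes were not tested. Precision is limited by 4 arrays in each group, and signal over background limits AT3G09680 and AT2G09990.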
